A study of Mus musculus with 6 samples.

Results

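The 42 genes described here are interferon-stimulated genes together with interferon receptors, RNA and DNA sensors and transcription factors of the same pathway. They were chosen by name, as the genes of the deposited count table whose gene symbol is on a list of 42 symbols, and all 42 symbols were found among its 24421 genes. Of the 42 members, 41 passed the filter on low counts, against 16723 genes in all, and *Mx1* did not. Most members were expressed in the sorted cells of both groups, from *Ifi27* and *Ifitm2* with the highest levels per length to *Oas3* and *Mx1* with the lowest. No member passed the test between AT2CAB and AT2CTRL, where 0.251% of all genes had an adjusted p under 0.05 in edgeR's test. The groups overlapped for all but 4 of the 41 members tested. Of these 4, 2 had all AT2CAB values above (7% of all genes) and 2 had all below (10.1% of all genes).

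The study sorted lineage-labelled alveolar type 2 (AT2) cells, the surfactant-secreting stem cells of the alveolus, from lungs of adult mice and sequenced their poly(A) RNA, to ask what constantly active signalling through the BMP receptor BMPR1a does to these cells. There were 3 AT2CTRL and 3 AT2CAB libraries, each with its own sample label and age, and nothing in the labels says that animals were pooled. Lists of 3 values are given in the order of replicates 1, 2 and 3. AT2CTRL cells had the genotype Sftpc-CreERT2/+; R26-tdTomato/+ and came from mice of 12, 16 and 12 weeks. AT2CAB cells had the genotype Sftpc-CreERT2/+; R26-tdTomato/R26-caBmpr1a, where caBmpr1a encodes a constitutively active BMPR1a, and came from mice of 16, 12 and 12 weeks. Both genotypes carry the tamoxifen-inducible Cre under *Sftpc* and the tdTomato reporter, so that the red label marks cells in which *Sftpc* was active at the time of tamoxifen. The label reports recombination of the reporter allele and not of caBmpr1a, and the study raised the possibility, from organoid colonies, that some cells had recombined the reporter alone.

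Interferons are secreted proteins, many of which cells release on sensing viral nucleic acids. Type I interferons act through IFNAR1 and IFNAR2, and interferon gamma through IFNGR1 and IFNGR2, on JAK kinases and the transcription factors these activate, among them STAT2 with IRF9, which bind the interferon-stimulated response element in the promoters of their target genes. The products of these genes block viral entry, translation and RNA replication, and airway and alveolar epithelium, a main point of entry for respiratory viruses, expresses many of them at a low level without infection.

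The libraries held 22909120, 24490233 and 27915100 counts in AT2CTRL and 21554249, 24716504 and 28440227 counts in AT2CAB. At these depths 3 counts correspond to between 0.0976 and 0.138 CPM (counts scaled to 1e6, on library totals scaled by edgeR's TMM factors), which covers counting error only. The AT2 label was checked on 12 AT2 markers, all of them tested, which summed to 141056, 130158 and 127157 CPM in AT2CTRL and 118755, 109177 and 103690 CPM in AT2CAB, with *Sftpc* the most abundant. *Id1*, a target of BMP signalling, was at 18.5, 20.8 and 19.2 CPM in AT2CTRL and at 124, 177 and 411 CPM in AT2CAB, so every AT2CAB library was above every AT2CTRL library. AT2CTRL replicate 1 and AT2CAB replicate 3 carried reads of the Y chromosome, with a sum over *Eif2s3y*, *Kdm5d*, *Ddx3y* and *Uty* of 176 and 146 CPM, and the remaining 4 libraries had none. On the first principal component (49.3% of the variance) these 2 had negative scores, -36.7 for AT2CTRL replicate 1 and -73.5 for AT2CAB replicate 3, the furthest out. The remaining 4 had positive scores, from only 0.503 for AT2CAB replicate 1 to 55.7 for AT2CTRL replicate 3. Log2 fold changes without the 2 libraries with Y-linked reads are given for the members described in full.

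Promoter sequences are shown for members in which the core letters of the response element could be found, since these letters are what many members share. The RefSeq promoter table (GRCm38.p6, equivalent to mm10) had entries for 33 of the 42 members. *Mx1*, *Mx2*, *Oas2*, *Dhx58*, *Usp18*, *Rtp4*, *Ifi27*, *Zbp1* and *Parp14* had no entry. Each window of 300 bases holds 250 bases before the gene's start and 50 after it, and some genes have several windows. GAAANNGAA, the core of the interferon-stimulated response element, was searched on both strands (TTCNNTTTC on the other strand). It was found for 19 of the 33 members (57.6%), and for 9.76% of the 27025 genes of the whole table. Counted by window, 46.3% of 41 member windows and 8.56% of 32851 windows held it. TTCNNNGAA, the core of the gamma-activated site, which reads the same on both strands, was found for 12 of the 33 members (36.4%) and for 9.55% of all genes. Both motifs were found for 6 members, and in 2 cases matches of the 2 motifs overlapped. The most matches to GAAANNGAA, 3 each, were in the windows of *Ifit1*, *Ifit3* and *Isg15*. Of the members described in full below, 13 had an entry and 5 of these held GAAANNGAA, among them *Ifitm3*, whose 2 matches lay after the start. The 250 bases before the start of the other 4, on the strand of the gene and with matches to GAAANNGAA in capitals, are those of *Oas3* (chr5:120777660-120777909, minus strand), *Ifitm2* (chr7:140955962-140956211, minus strand), *Bst2* (chr8:71537473-71537722, minus strand) and *Rsad2* (chr12:26456453-26456702, minus strand).
Oas3: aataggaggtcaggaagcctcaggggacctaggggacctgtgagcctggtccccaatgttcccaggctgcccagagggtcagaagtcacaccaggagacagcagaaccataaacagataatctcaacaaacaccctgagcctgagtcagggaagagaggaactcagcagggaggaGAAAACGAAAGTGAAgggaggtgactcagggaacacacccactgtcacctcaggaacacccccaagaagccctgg
Ifitm2: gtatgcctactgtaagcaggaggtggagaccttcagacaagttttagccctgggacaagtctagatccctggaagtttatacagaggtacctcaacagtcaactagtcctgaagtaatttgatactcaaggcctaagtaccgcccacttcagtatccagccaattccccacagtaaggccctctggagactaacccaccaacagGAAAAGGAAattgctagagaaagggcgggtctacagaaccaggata
Bst2: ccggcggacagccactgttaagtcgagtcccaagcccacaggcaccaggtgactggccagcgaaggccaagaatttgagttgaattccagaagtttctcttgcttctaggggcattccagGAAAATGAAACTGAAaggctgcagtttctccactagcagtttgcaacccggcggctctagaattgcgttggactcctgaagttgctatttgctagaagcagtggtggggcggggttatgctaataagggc
Rsad2: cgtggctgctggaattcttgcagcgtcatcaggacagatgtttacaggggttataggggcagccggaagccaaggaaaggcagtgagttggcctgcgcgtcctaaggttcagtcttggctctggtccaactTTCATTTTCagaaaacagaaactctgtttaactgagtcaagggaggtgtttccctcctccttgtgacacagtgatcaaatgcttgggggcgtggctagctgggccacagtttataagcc
In *Oas3* and *Bst2* the 2 matches overlap, starting 75 and 69 bases before the start of *Oas3* and 130 and 124 bases before that of *Bst2*. The start is that of the promoter table, which for *Bst2* lies outside the gene's bounds in the count table. The single match of *Ifitm2* starts 46 bases before its start, and that of *Rsad2*, on the other strand, 119 bases before. These matches are letters in a window and say nothing of binding in these cells.

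The levels of the members spanned a wide range in sorted AT2 cells. To compare genes, levels were divided by gene length (CPM per kb, mean of the 6 libraries). On that scale 12 members were over 10 CPM per kb, 11 were under 1 CPM per kb, and the median member was at 2.91 CPM per kb. The highest was *Ifi27* with 84.3 CPM per kb, followed by *Ifitm2* with 81.6 CPM per kb, *Ifitm3* with 36.5 CPM per kb, *Bst2* with 29.6 CPM per kb and *Ifngr1* with 29.4 CPM per kb. *Ifi27* ranged from 70.9 to 98.2 CPM per kb over the 6 libraries and *Ifitm2* from 69.2 to 94.7 CPM per kb, so these neighbours in the order did not differ beyond their spread. *Ifitm3* (26.0 to 50.2 CPM per kb), *Bst2* (24.9 to 32.6 CPM per kb) and *Ifngr1* (24.9 to 31.1 CPM per kb) overlapped one another and lay below both. At the low end were *Oasl1*, *Mx2*, *Oas3* and *Mx1*, with 0.348, 0.302, 0.241 and 0.0854 CPM per kb.

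**Figure D1:**
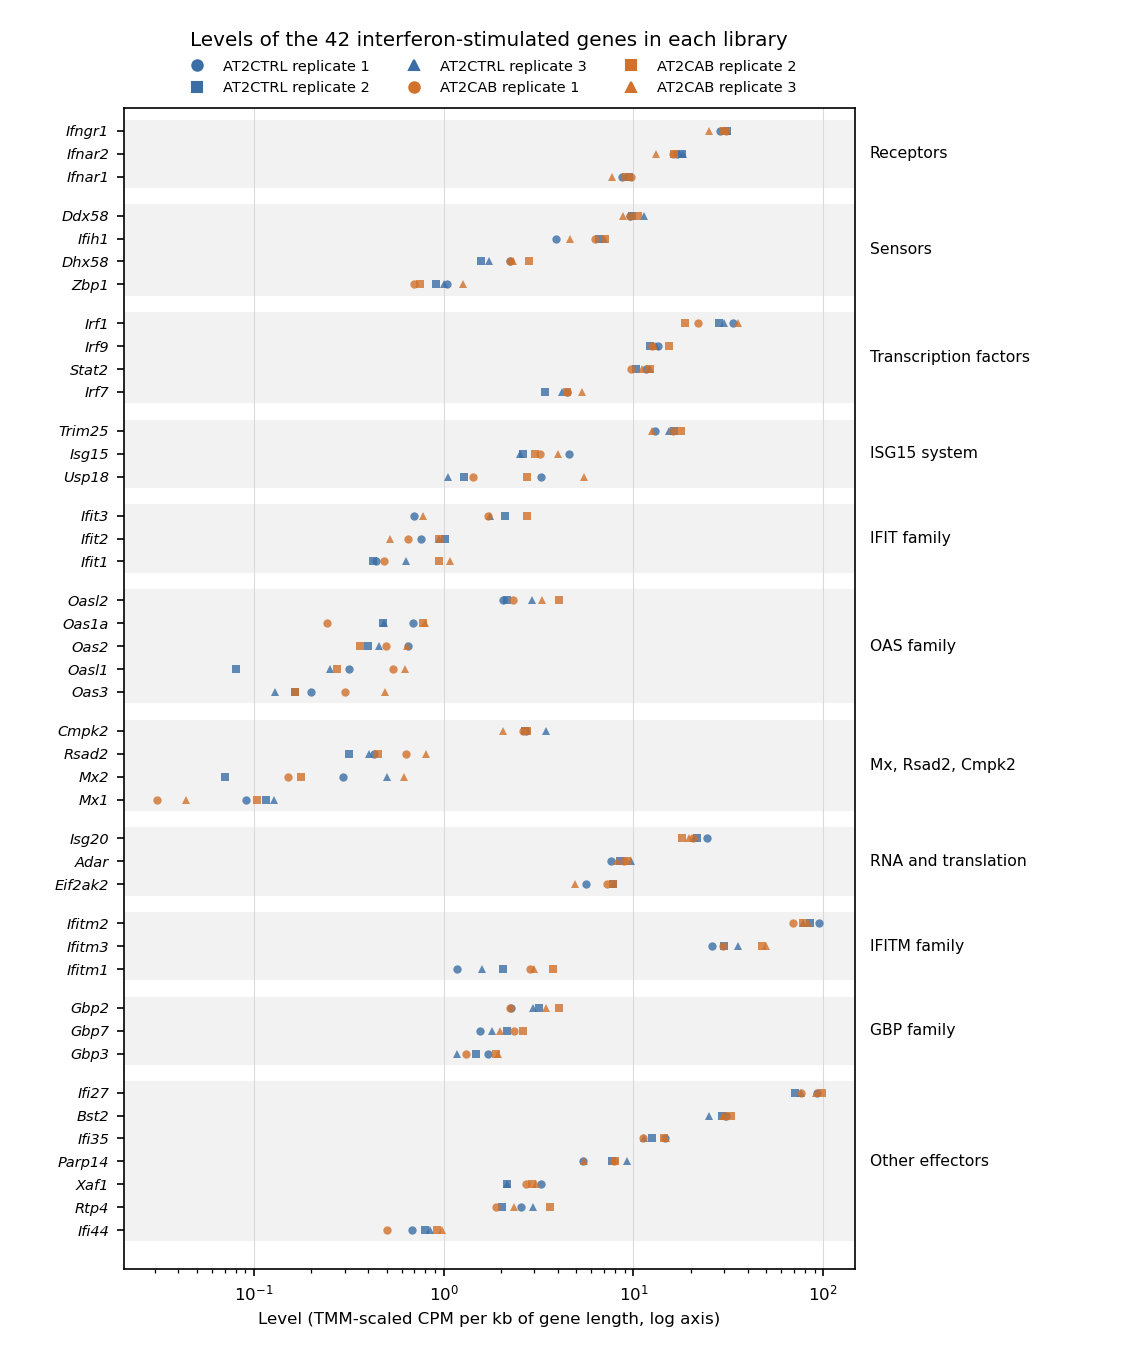
Level of each of the 42 members in each library, in TMM-scaled CPM per kb of gene length on a log axis, with genes grouped by role and 1 point per library (blue AT2CTRL, orange AT2CAB). Mean levels run from 0.0854 CPM per kb for *Mx1* to 84.3 CPM per kb for *Ifi27*, and for most members the points of both groups overlap.

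No member was called between AT2CAB and AT2CTRL. With edgeR's quasi-likelihood test, calls at an adjusted p below 0.05 with more than a doubling or halving, 0 of the 41 members tested were higher, where 38 of 16723 genes (0.227%) were, and 0 were lower, where 2 genes (0.012%) were. Without the fold threshold 0 members passed, against 0.251% of all genes. DESeq2 and limma-voom also called 0 members, where 1.28% and 0.167% of their genes had an adjusted p under 0.05. DESeq2's own filter gave no adjusted p for *Oasl1*, *Oas3*, *Oas1a*, *Mx1* and *Mx2*. At an unadjusted p under 0.05 in edgeR's test, 1 member was higher (4.62% of all genes) and 0 were lower (5.05% of all genes), and 1 higher and 0 lower came from DESeq2 (4.44% and 3.20% of its genes) and from limma-voom (4.78% and 5.35%). The 3 AT2CAB values were all above the 3 AT2CTRL values for 2 members, *Ifitm1* and *Rsad2* (7% of all genes), and all below for 2, *Isg20* and *Ifnar2* (10.1% of all genes). At an unadjusted p under 0.05, upper-quartile factors gave 3 members higher (5.99% of all genes), library size alone 4 higher (8.14%) and a covariate for Y-linked reads 3 higher (7.97%) and 2 lower (10.7%). The smallest adjusted p among the members was 0.471 in edgeR's test, and over the alternatives tried the smallest ran from 0.0819 to 0.806. For 1 gene, exact permutation of 3 against 3 libraries reaches no p smaller than 0.1. The count of called genes itself depended on single libraries: without AT2CTRL replicates 1, 2 and 3 in turn, 12, 6 and 7 genes were higher, and without AT2CAB replicates 1, 2 and 3 in turn, 59, 8 and 25 were, with 0 members in each case.

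The median log2 fold change of the 41 members was 0.08, beside -0.01 for all genes tested, and 35 members lay between -0.5 and 0.5, as did 79% of all genes. It was 0.22 without AT2CAB replicate 1, 0.01 without AT2CAB replicate 2 and 0.16 without AT2CAB replicate 3, and 0.14 in the 4 libraries without Y-linked reads. With TMM scaling 28 of the 41 had a positive log2 fold change, as with RLE factors, and with upper-quartile factors and library size alone 31 and 35 did, while 48.8% of all genes were positive with TMM. The sign of 19 of the 41 turned when at least 1 of the libraries was left out. Positive signs were more frequent under a cut at 10 CPM than above it, a difference that was not tested. Of the 22 members with a mean under 10 CPM, 19 (86.4%) were positive with a median log2 fold change of 0.21, and over all 7491 tested genes under 10 CPM 70.2% were positive with a median of 0.26. Of the 19 members at 10 CPM or more, 9 (47.4%) were positive with a median of -0.04, and over all 9232 such genes 31.4% were, with a median of -0.09. Per length the 2 sides were closer. Under 1 CPM per kb 8 of 10 members were positive (median 0.14), and at 1 CPM per kb or more 20 of 31 (median 0.08).

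**Figure D2:**
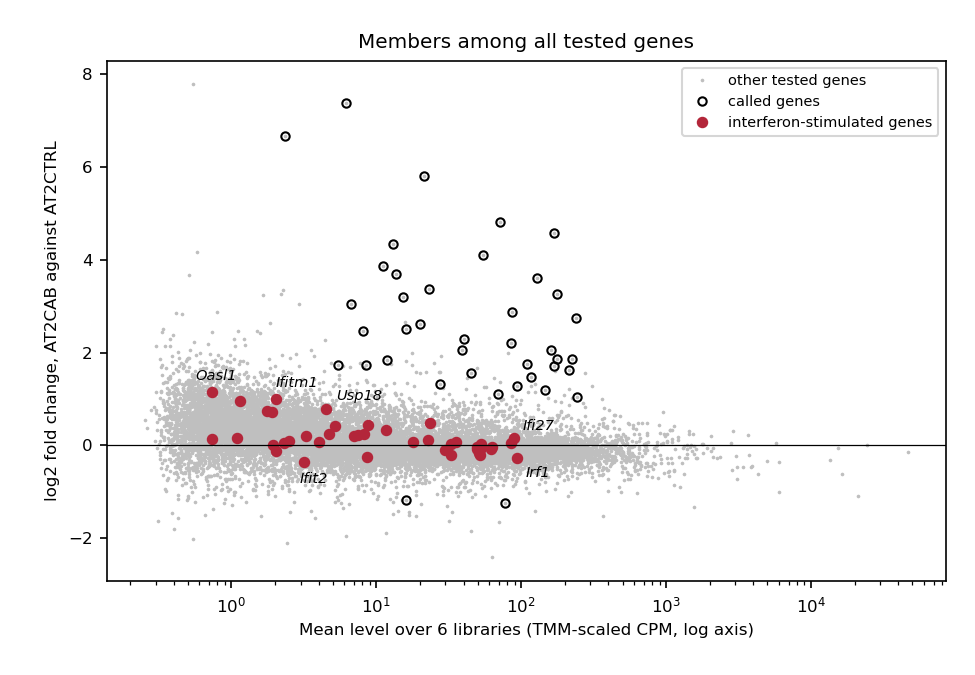
Log2 fold change of AT2CAB against AT2CTRL (vertical axis) against the mean level over 6 libraries in TMM-scaled CPM (horizontal log axis) for the 16723 tested genes, with the 41 tested members in red and called genes as open circles. No member is circled, and the members lie within the cloud of the other genes, from -0.36 (*Ifit2*) to 1.15 (*Oasl1*).

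The receptor subunits were among the evenly expressed members. *Ifngr1* (chr10:19591958-19610225), the ligand-binding chain of the interferon gamma receptor, was at 60.0, 65.1 and 65.4 CPM in AT2CTRL and at 64.5, 62.6 and 52.2 CPM in AT2CAB. AT2CAB replicate 3 was the lowest library and the other 5 lay close together, so the groups overlapped. For *Ifngr1* the log2 fold change came to -0.09 (SE, the standard error, 0.12, adjusted p = 0.846), and the sign turned with library size scaling (0.04) and without AT2CAB replicate 3 (0.04), and it was -0.01 in the 4 libraries without Y-linked reads. *Ifnar2* (chr16:91372783-91405587), the long-tailed chain of the type I receptor that docks STAT2, was at 53.6, 57.1 and 57.9 CPM in AT2CTRL and at 51.6, 51.7 and 41.7 CPM in AT2CAB. All AT2CAB values were below all AT2CTRL values, by a narrow margin for replicates 1 and 2 and a wider one for replicate 3. For *Ifnar2* the log2 fold change came to -0.22 (SE 0.12, adjusted p = 0.609), to -0.12 in the 4 libraries without Y-linked reads and to -0.08 without AT2CAB replicate 3 alone. *Ifnar1*, the other type I chain, ranged from 54.2 to 67.8 CPM with a log2 fold change of -0.04, which turned to 0.09 without AT2CAB replicate 3. All 3 receptor members were negative with TMM scaling, whereas 1 was positive with upper-quartile factors and 2 with library size alone.

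Among the 4 sensors, *Ddx58* encodes RIG-I and *Ifih1* encodes MDA5, which detect viral RNA in the cytoplasm, *Dhx58* encodes their relative LGP2, and *Zbp1* a sensor of left-handed nucleic acids. Per length, *Ddx58* (9.96 CPM per kb) and *Ifih1* (5.91 CPM per kb) were above *Dhx58* (2.15 CPM per kb) and *Zbp1* (0.945 CPM per kb). Their log2 fold changes ran from -0.12 for *Zbp1* to 0.41 for *Dhx58*, and the groups overlapped for each of them. With each library left out, *Zbp1* ran from -0.40 to 0.06, *Ifih1* from -0.19 to 0.22, *Ddx58* from -0.13 to 0.02 and *Dhx58* from 0.30 to 0.57, with 0.65 for *Dhx58* in the 4 libraries without Y-linked reads. *Ifih1* was low in both libraries with Y-linked reads, 21.7 CPM in AT2CTRL replicate 1 and 25.5 CPM in AT2CAB replicate 3, and between 34.6 and 39.0 CPM in the other 4.

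*Irf1* (chr11:53770014-53778374), a transcription factor induced by interferon gamma, was the most abundant of the transcription factor members per length (27.9 CPM per kb). It was at 112, 95.2 and 101 CPM in AT2CTRL and at 73.9, 62.5 and 119 CPM in AT2CAB. AT2CAB replicates 1 and 2 were below every AT2CTRL library and AT2CAB replicate 3 was above them all. For *Irf1* the log2 fold change came to -0.27 (SE 0.22, adjusted p = 0.722). Without the 2 libraries with Y-linked reads, which were its 2 highest, it was -0.49 (adjusted p = 0.0819 in edgeR's test), and the adjusted p ran up to 0.949 over the other alternatives. It was -0.55 without AT2CAB replicate 3 and -0.08 without AT2CAB replicate 2. *Irf9* and *Stat2*, whose products act together downstream of the type I receptor, had log2 fold changes of 0.08 and -0.05, which ran from -0.01 to 0.16 and from -0.11 to 0.06 with each library left out. *Irf7*, the factor that amplifies type I interferon production, was between 6.34 and 9.89 CPM with a log2 fold change of 0.24 (0.13 without AT2CTRL replicate 2). For these 3 the groups overlapped.

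In the ISG15 system, *Isg15* encodes a ubiquitin-like modifier, *Usp18* the protease that removes it and that dampens signalling at IFNAR2, and *Trim25* a ubiquitin ligase that acts on RIG-I. *Trim25* was at 15.2 CPM per kb, *Isg15* at 3.32 CPM per kb and *Usp18* at 2.54 CPM per kb. *Usp18*, singled out after its values were seen, was at 5.78, 2.27 and 1.87 CPM in AT2CTRL and at 2.52, 4.85 and 9.67 CPM in AT2CAB. Its highest libraries were those with Y-linked reads, followed by AT2CAB replicate 2, and the highest library had 5.18 times the level of the lowest. For *Usp18* the log2 fold change came to 0.79 (SE 0.57, adjusted p = 0.686), which was 0.22 without AT2CAB replicate 3, 1.46 without AT2CTRL replicate 1 and 0.88 without both. *Isg15* (1.90 to 3.45 CPM) and *Trim25* (69.5 to 99.1 CPM) had log2 fold changes of 0.08 and 0.05, and with each library left out they ran from -0.07 to 0.41 and from -0.05 to 0.22.

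The IFIT proteins bind foreign RNA ends and hold back translation. *Ifit2* (chr19:34550694-34576534) was at 3.00, 3.99 and 3.73 CPM in AT2CTRL and at 2.57, 3.72 and 2.05 CPM in AT2CAB. AT2CAB replicates 1 and 3 were below every AT2CTRL library, and replicate 2 lay among them. The lowest value of the 41 members tested was that of *Ifit2*, with -0.36 in log2 (SE 0.34, adjusted p = 0.754). It was -0.14 without AT2CAB replicate 3, where other members were lower, -0.62 without AT2CAB replicate 2 and -0.25 in the 4 libraries without Y-linked reads. Other members were also lower in those 4 libraries, such as *Mx2* (-0.78) and *Irf1* (-0.49). The same held without AT2CTRL replicate 2, with *Mx2* at -0.34 and *Ifit2* at -0.28. *Ifit1* (1.11 to 2.83 CPM) and *Ifit3* (1.39 to 5.47 CPM), its neighbours on chromosome 19, had values of 0.74 and 0.20. That of *Ifit1* was 0.47 in the 4 libraries without Y-linked reads, and that of *Ifit3* turned to -0.28 without AT2CAB replicate 2 and to -0.15 without AT2CTRL replicate 1. *Ifit3* has a close paralog, *Ifit3b*, with 15 to 39 counts a library, and reads matching both equally could not be assigned.

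The OAS enzymes make short oligoadenylates that switch on RNase L, and the OAS-like genes *Oasl1* and *Oasl2* are their relatives. All 5 lie on chromosome 5 and all but *Oasl2* were under 1 CPM per kb. *Oasl1* (chr5:114923240-114937911) was at 0.673, 0.171 and 0.533 CPM in AT2CTRL and at 1.15, 0.582 and 1.33 CPM in AT2CAB. AT2CAB replicates 1 and 3 were above all AT2CTRL libraries, and AT2CAB replicate 2 was below AT2CTRL replicate 1. *Oasl1* had the highest log2 fold change of the members, 1.15 (SE 0.66, adjusted p = 0.617), from 4 to 41 counts a library. It was 0.75 without AT2CTRL replicate 2, the library with 4 counts, where *Ifitm1* and *Oas3* were higher, and 1.28 in the 4 libraries without Y-linked reads. Without AT2CAB replicate 1 *Oasl1* was at 1.08, below *Usp18* (1.17) and *Ifitm1* (1.10). Without AT2CAB replicate 3 it was at 0.94, below *Ifitm1* (1.08). *Oas3* (chr5:120753098-120777659), whose promoter is shown above, was at 0.942, 0.772 and 0.609 CPM in AT2CTRL and at 1.42, 0.776 and 2.31 CPM in AT2CAB. AT2CAB replicate 3 was highest, and AT2CAB replicate 2 lay inside the AT2CTRL range. For *Oas3* the log2 fold change came to 0.96 (SE 0.55, adjusted p = 0.617), which was 0.69 in the 4 libraries without Y-linked reads and 0.54 without AT2CAB replicate 3. *Oasl2*, *Oas1a* and *Oas2* had log2 fold changes of 0.44, 0.15 and 0.00. That of *Oasl2* ran from 0.25 without AT2CAB replicate 2 to 0.65 without AT2CAB replicate 1, where that of *Oas1a* was 0.55. The groups overlapped for all 5. None was below 0 under the 4 scalings, but *Oas2* turned to -0.14 without AT2CTRL replicate 2, -0.07 without AT2CTRL replicate 3 and -0.18 without AT2CAB replicate 3, and *Oas1a* to -0.06 without AT2CAB replicate 2 and -0.05 without AT2CAB replicate 3.

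*Rsad2* (chr12:26442743-26456452) encodes viperin, which makes a chain-terminating nucleotide, and *Cmpk2* (chr12:26469215-26479837) a nucleotide kinase encoded beside it. *Rsad2* was at 1.61, 1.20 and 1.52 CPM in AT2CTRL and at 2.38, 1.71 and 3.06 CPM in AT2CAB. All AT2CAB values were above all AT2CTRL values, with AT2CAB replicate 2 just above. For *Rsad2* the log2 fold change came to 0.72 (SE 0.40, adjusted p = 0.609), and 0.61 in the 4 libraries without Y-linked reads. *Cmpk2* was at 8.65, 8.57 and 11 CPM in AT2CTRL and at 8.39, 8.81 and 6.57 CPM in AT2CAB. AT2CTRL replicate 3 was the highest, AT2CAB replicate 3 the lowest and the other 4 were alike, so the groups overlapped. For *Cmpk2* the log2 fold change came to -0.25 (SE 0.20, adjusted p = 0.705). It was -0.10 without AT2CAB replicate 3, -0.12 without AT2CTRL replicate 3 and -0.16 in the 4 libraries without Y-linked reads. *Mx1* and *Mx2*, of the family of dynamin-like antiviral GTPases, were at low levels, *Mx1* closer to the counting floor than *Mx2*. *Mx1* was at 0.269, 0.343 and 0.381 CPM in AT2CTRL and at 0.0917, 0.310 and 0.130 CPM in AT2CAB, from 2 to 10 counts a library, and was not tested. Without the expression filter its log2 fold change was -0.89 (adjusted p = 0.817). *Mx2* ranged from 0.171 to 1.5 CPM, and its log2 fold change came to 0.13 (SE 0.83), with no stable sign: it ran from -0.78 without AT2CAB replicate 3 to 0.79 without AT2CTRL replicate 3.

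*Isg20*, an exonuclease that degrades RNA, lies at chr7:78913424-78920396. It was at 38.3, 34.2 and 33.0 CPM in AT2CTRL and at 32.4, 28.5 and 30.9 CPM in AT2CAB. The groups did not overlap, though the lowest AT2CTRL and the highest AT2CAB library were close. For *Isg20* the log2 fold change came to -0.20 (SE 0.12, adjusted p = 0.621), and -0.11 in the 4 libraries without Y-linked reads. *Adar*, which edits adenosine to inosine in double-stranded RNA, and *Eif2ak2*, which encodes the translation-blocking kinase PKR, had log2 fold changes of 0.02 and -0.10, which ran from -0.07 to 0.11 and from -0.24 to 0.12 with each library left out. *Eif2ak2* was at 24.4 and 21.2 CPM in the libraries with Y-linked reads and between 31.2 and 33.8 CPM in the rest.

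The IFITM proteins sit in endosomal and plasma membranes and hinder fusion of enveloped viruses. Their 3 genes lie within a short stretch of chromosome 7, yet differed in level and in sign. *Ifitm1* (chr7:140967429-140969827) was at 0.986, 1.71 and 1.33 CPM in AT2CTRL and at 2.38, 3.18 and 2.51 CPM in AT2CAB. Every AT2CAB library was above every AT2CTRL library. For *Ifitm1* the log2 fold change came to 1.00 (SE 0.39, adjusted p = 0.471) from 22 to 82 counts a library, and this was the 1 member with an unadjusted p under 0.05. It was 0.91 in the 4 libraries without Y-linked reads, and from 0.81 to 1.20 with each library left out in turn.

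*Ifitm3* (chr7:141009590-141010744), the member of the family best known for blocking influenza virus, was at 16.9, 19.5 and 23.1 CPM in AT2CTRL and at 19.2, 30.7 and 32.5 CPM in AT2CAB. AT2CAB replicates 2 and 3 were above all AT2CTRL libraries, and AT2CAB replicate 1 lay among them. For *Ifitm3* the log2 fold change came to 0.47 (SE 0.22, adjusted p = 0.534), and to 0.26 in the 4 libraries without Y-linked reads. *Ifitm2* (chr7:140954839-140955961) was at 59.4, 53.6 and 49.0 CPM in AT2CTRL and at 43.4, 49.2 and 52.2 CPM in AT2CAB. The groups overlapped, with AT2CTRL replicate 1 highest and AT2CAB replicate 1 lowest. For *Ifitm2* the log2 fold change came to -0.16 (SE 0.12, adjusted p = 0.703), to -0.11 in the 4 libraries without Y-linked reads and to -0.06 without AT2CAB replicate 1. The family members are similar in sequence, so reads matching several of them equally could not be assigned.

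Guanylate-binding proteins are GTPases induced mainly by interferon gamma that attack the compartments of intracellular microbes. *Gbp2*, *Gbp3* and *Gbp7* lie on chromosome 3, were at 3.02, 1.58 and 2.07 CPM per kb, and had log2 fold changes of 0.22, 0.24 and 0.33. All 3 were positive under each of the 4 scalings, with overlapping groups, and AT2CAB replicate 2 was the highest library for *Gbp2* and *Gbp7*. The value of *Gbp2* was 0.04 without that library, 0.08 without AT2CTRL replicate 1, 0.45 without AT2CAB replicate 1 and 0.08 in the 4 libraries without Y-linked reads. That of *Gbp3* was 0.11 without AT2CTRL replicate 3 and 0.43 without AT2CAB replicate 1, and that of *Gbp7* was 0.22 without AT2CTRL replicate 1.

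Of the 7 other effectors, *Ifi27* and *Bst2* were described in full for their levels. *Ifi27* (chr12:103434189-103440245), a small protein of mitochondrial and nuclear membranes, was at 97.7, 74.7 and 80.3 CPM in AT2CTRL and at 80.8, 103 and 96.0 CPM in AT2CAB. High and low libraries were found in both groups. For *Ifi27* the log2 fold change came to 0.15 (SE 0.14, adjusted p = 0.763), and 9.78% of its exon length overlaps *Ifi27l2a*, where reads were left out of the counting. It was 0.29 in the 4 libraries without Y-linked reads, and ran from 0.07 without AT2CTRL replicate 2 to 0.27 without AT2CAB replicate 1. *Bst2* (chr8:71534262-71537437) encodes tetherin, which holds budding virions at the cell surface. It was at 23.5, 22.5 and 19.1 CPM in AT2CTRL and at 23.2, 24.9 and 22.7 CPM in AT2CAB. AT2CTRL replicate 3 was the lowest and the other 5 libraries were alike. For *Bst2* the log2 fold change came to 0.12 (SE 0.13, adjusted p = 0.788), to 0.25 in the 4 libraries without Y-linked reads and to 0.03 without AT2CTRL replicate 3. The remaining effectors *Xaf1*, *Ifi35*, *Rtp4*, *Ifi44* and *Parp14* had log2 fold changes of 0.20, 0.08, 0.07, 0.05 and -0.06, with overlapping groups. With each library left out, *Xaf1* ran from 0.10 to 0.42, and the sign of the other 4 turned: *Ifi35* ran from -0.01 to 0.22, *Rtp4* from -0.23 to 0.28, *Ifi44* from -0.08 to 0.32 and *Parp14* from -0.25 to 0.13.

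**Figure D3:**
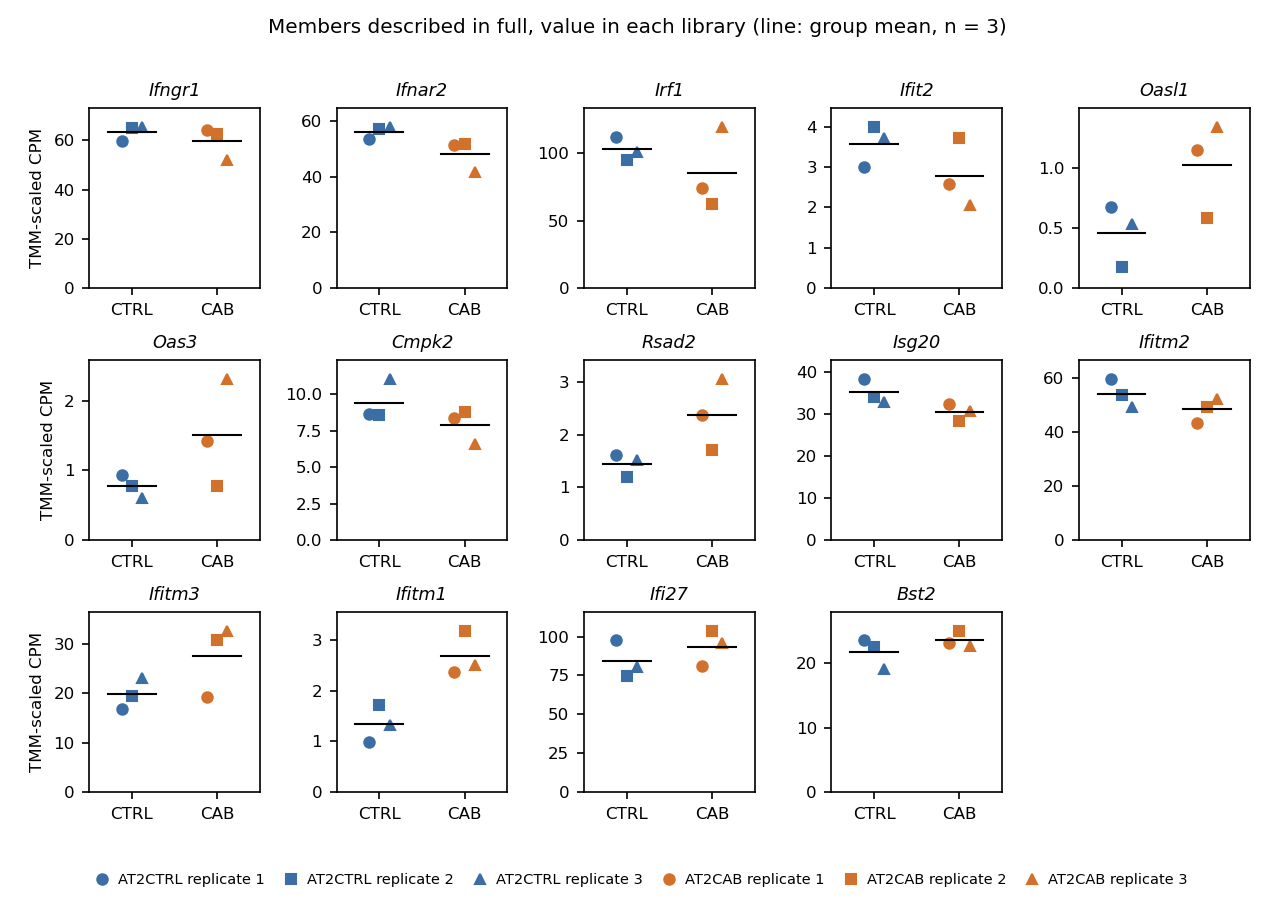
TMM-scaled CPM (vertical axes, each from 0) of the 14 members described in full, with 1 point per library, AT2CTRL in blue, AT2CAB in orange and a line at each group mean (n = 3). The groups are apart for *Ifitm1*, *Rsad2*, *Isg20* and *Ifnar2* and overlap for the other 10.

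**Figure D4:**
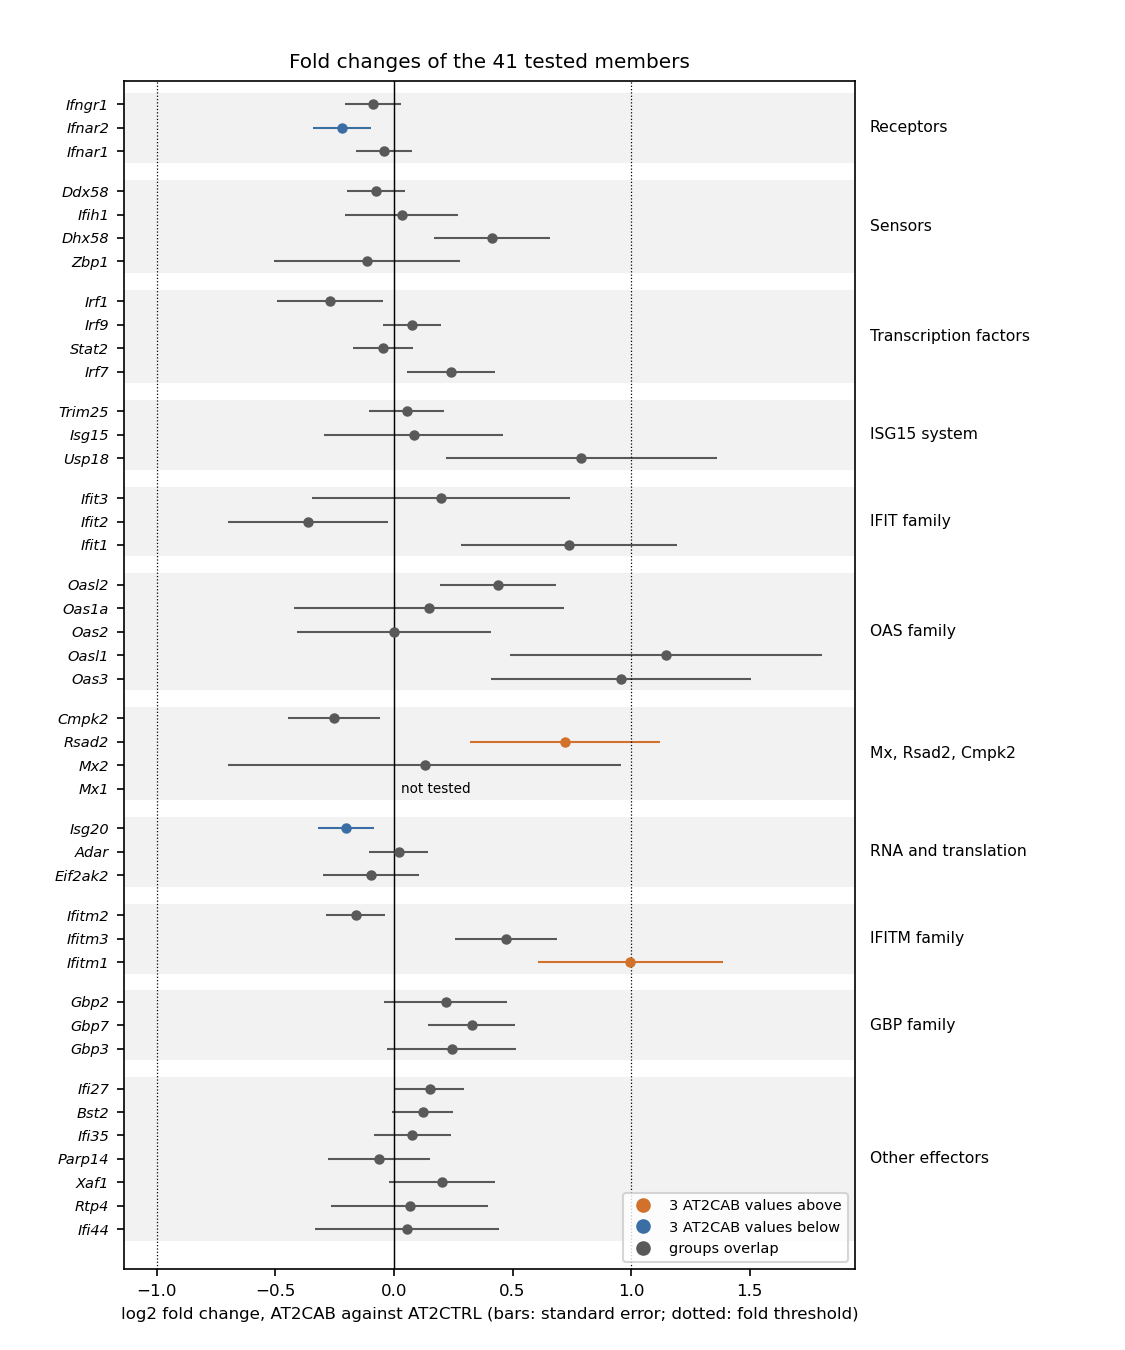
Log2 fold change of AT2CAB against AT2CTRL for the 41 tested members by role, with SEs as bars and dotted lines at the fold threshold. The points run from -0.36 to 1.15, orange and blue points mark the 4 members whose groups do not overlap, and the bars are widest for *Mx2*, *Oasl1*, *Usp18* and *Oas1a*.

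Over all 6 libraries, the highest had a median of 1.80 times the level of the lowest over the 41 members, beside 1.74 times over all genes tested. For 13 members this ratio was under 1.5, and for 7 it was over 3. Summed over the 42 members, the level was 969, 983 and 1026 CPM in AT2CTRL and 950, 1044 and 963 CPM in AT2CAB. AT2CAB replicates 2 and 3 were the highest library for 13 and 14 of the 41 members, where they were for 10.3% and 27.5% of all genes, and AT2CAB replicate 1 for 1 member, where it was for 8.66% of all genes. Relative to each gene's mean over the 6 libraries, the members' median log2 deviation was 0.15 in AT2CAB replicate 2 and 0.13 in AT2CAB replicate 3, and -0.01 in AT2CAB replicate 1. In AT2CTRL it was 0.02, -0.07 and 0.01.

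**Figure D5:**
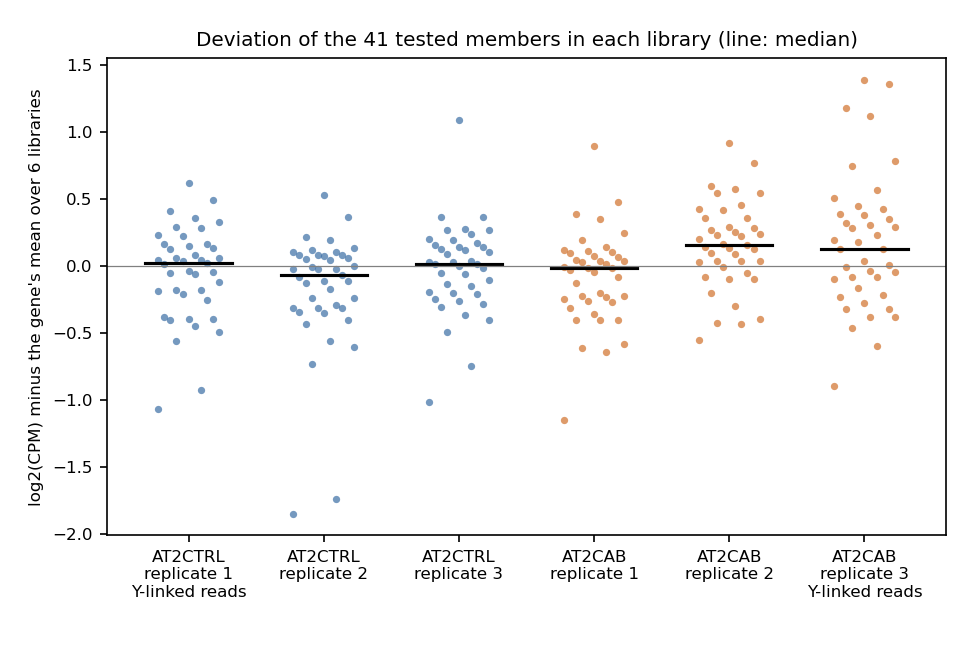
Log2 CPM of each of the 41 tested members minus that gene's mean over the 6 libraries (vertical axis), for each library, with a line at the median. The medians of AT2CAB replicates 2 and 3 are at 0.15 and 0.13, and those of the other 4 libraries between -0.07 and 0.02.

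The libraries with Y-linked reads differed from the others for many members. In both of them 7 members were above the other 4 libraries, namely *Isg15*, *Oas2*, *Irf1*, *Usp18*, *Xaf1*, *Ifi35* and *Zbp1*, and 9 members were below, namely *Ifit3*, *Ddx58*, *Ifih1*, *Parp14*, *Trim25*, *Eif2ak2*, *Adar*, *Ifnar1* and *Ifngr1*. Among all genes tested, 19.5% were above and 15.8% below in the same way, so that members (17.1% and 22%) were split to a similar extent. These libraries are 1 of each group, and the sex of the mice was not given in the labels. In the 4 libraries without Y-linked reads, edgeR called 0 of 41 members at an adjusted p under 0.05 (0.693% of the 16316 genes tested there). At an unadjusted p under 0.05, 1 was higher (6.26% of these genes) and 1 lower (7.28%).

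Markers of other cells were compared for the same libraries. The 20 leukocyte markers were all tested, 0 were called, 19 had a positive log2 fold change, and they summed to 97.8, 112 and 124 CPM in AT2CTRL and to 269, 155 and 83.7 CPM in AT2CAB, with *Cd68* the most abundant. AT2CAB replicate 1 was highest for 17 of the 20, and it was highest for 1 of the 41 members. The 12 endothelial markers summed to 500, 818 and 565 CPM in AT2CTRL and to 712, 1071 and 766 CPM in AT2CAB, with *Esam* the most abundant and 11 of 12 positive. AT2CAB replicate 2 was highest for 11 of these 12, for 8 of 10 AT1 and for 7 of 12 mesenchymal markers, and for 13 of the 41 members. The 12 mesenchymal markers, all positive and 0 called, summed to 220, 312 and 284 CPM in AT2CTRL and to 381, 450 and 396 CPM in AT2CAB, with *Fn1* the most abundant. Of 8 airway markers 7 were tested and 1, *Tppp3*, was called higher, *Krt5* was at 0 in every library, and the list summed to 825, 923 and 722 CPM in AT2CTRL and 839, 1174 and 1220 CPM in AT2CAB, mostly *Scgb1a1*. Of 10 AT1 markers 8 were positive and 0 were called, and of the 12 AT2 markers 10 were negative and 0 were called, while 5 of 7 BMP targets were called higher. No leukocyte, endothelial or mesenchymal marker was at 0 in every library. The part of other cells in the members' values was not tested, and in bulk RNA fewer cells of a type and less RNA per cell cannot be told apart.

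Most of the interferons themselves were near the counting floor, while *Ifng* was above it in every library. Of 21 interferon genes looked up, 4 (*Ifna6*, *Ifna12*, *Ifna16* and *Ifne*) had no count in any library, and 1, *Ifng*, passed the filter on low counts. *Ifng*, normally made by lymphocytes, was at 1.21, 0.643 and 0.457 CPM in AT2CTRL and at 1.56, 1.01 and 1.66 CPM in AT2CAB. AT2CAB replicate 2 was below AT2CTRL replicate 1, so the groups overlapped. For *Ifng* the log2 fold change came to 0.87 (SE 0.54, adjusted p = 0.645). The 21 genes summed to 4.35, 1.20 and 0.838 CPM in AT2CTRL and to 2.52, 1.32 and 4.49 CPM in AT2CAB, so the sum was highest in the libraries with Y-linked reads. *Ifnb1* had 4 counts in AT2CAB replicate 3 and 0 in the other 5 libraries.

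Of 29 genes of the pathway's signalling steps outside the members, all were tested and 0 were called by edgeR. At an unadjusted p under 0.05, 1 was higher (4.62% of all genes) and 2 were lower (5.05% of all genes), and 15 of the 29 were positive with a median log2 fold change of 0.02. Of 69 further interferon-induced genes 61 were tested and 0 were called, with 6 higher (4.62% of all genes) and 1 lower (5.05%) at an unadjusted p under 0.05 and a median of 0.10. The 5 with the smallest p over both lists were *Tor3a*, *Ifi203*, *Irf8*, *Slfn5* and *Myd88*. *Tor3a*, an interferon-induced torsin ATPase, was at 38.6, 34.6 and 33.8 CPM in AT2CTRL and at 42.5, 46.9 and 61.7 CPM in AT2CAB, with a log2 ratio of 0.50 (SE 0.16, adjusted p = 0.367). *Irf8*, a transcription factor best known in myeloid cells and B cells, was at 6.46, 5.79 and 5.03 CPM in AT2CTRL and at 10.6, 8.38 and 7.19 CPM in AT2CAB. *Irf8* was highest in AT2CAB replicate 1, the library with the highest leukocyte sum, and its log2 fold change came to 0.60 (adjusted p = 0.430). *Ifi203* and *Slfn5* had log2 fold changes of 0.72 and 0.59 (adjusted p = 0.416 and 0.436), and *Myd88*, the adaptor of Toll-like receptors, of -0.31 (adjusted p = 0.443). For all 5 the groups did not overlap, but they were picked for their small p. Over the whole lists, AT2CAB values were all above in 3 of 29 and 5 of 61 genes (7% of all genes). They were all below in 2 and 3 genes (10.1% of all genes).

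From the 29 signalling genes, 4 known partners of the members were picked, and these do not stand for the whole list. *Tyk2*, which encodes a kinase bound to the type I receptor, was at 41.8, 41.8 and 46.8 CPM in AT2CTRL and at 48.4, 49.3 and 49.8 CPM in AT2CAB. The 3 AT2CAB values were above the 3 AT2CTRL values, by a small margin. The log2 fold changes were 0.18 for *Tyk2*, -0.06 for *Jak1*, the other kinase of that receptor, -0.24 for *Ifngr2* and -0.06 for *Ifnlr1*, the receptor for lambda interferons that epithelial cells carry. The adjusted p of these 4 was between 0.624 and 0.924 in edgeR's test. Per length, *Jak1* was at 27.2, *Ifngr2* at 13.1, *Tyk2* at 9.51 and *Ifnlr1* at 7.85 CPM per kb, each within the range of the receptor and transcription factor members.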

How the data were processed

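Poly(A) RNA of 3 AT2CTRL and 3 AT2CAB libraries was sequenced in pairs of reads. The authors trimmed reads, aligned them to mm10 with Hisat2, removed duplicates and deposited unnormalized counts per gene from featureCounts 1.5.3, made without strand. The methods speak of fragments, but the file header holds no pair option and 56.9% to 60.8% of counts from 1 to 20 were even, so counts of reads are assumed. Reads on overlapping genes or matching several places were left out. All 6 count columns were used.

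Tests used edgeR 4.0.16 in R 4.3.3 (TMM, filterByExpr with a minimum count of 10, quasi-likelihood, Benjamini-Hochberg over 16723 genes). Calls required an adjusted p below 0.05 and more than a doubling or halving. Alternatives used DESeq2 1.42.0, limma 3.58.1, other scalings, covariates and left-out libraries, and scripts were tested on simulated data. Members were described in full when they had a p under 0.05, separate groups, 1 of the 5 highest levels per length or 1 of the 3 largest fold changes in either direction. Pathway genes outside the members were named by the 5 smallest p or as known partners. The members and lists were chosen with earlier results of these data known. The labels do not state separate mice, so p-values measure the spread between these libraries.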

Additional observations from a re-analysis of the deposited data

How the results depend on the processing

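In every alternative run, 0 members were called in either direction, also with DESeq2 (no adjusted p for 5 of 42), limma-voom, no fold threshold and each library left out in turn. Few genes of the whole table passed in these runs either. The share with an adjusted p under 0.05 ran from 0.0342% without AT2CTRL replicate 2 to 2.53% with a covariate for Y-linked reads. The log2 fold changes of the 14 members described in full kept their sign in all but 2 of their alternatives. That of *Ifngr1* turned from -0.09 to 0.0395 with library size only, and ran from -0.13 to 0.0382 with each library left out, the latter without AT2CAB replicate 3. The median log2 fold change of the members was 0.15 with upper-quartile factors and 0.21 with library size only, where the median of all genes was 0.06 and 0.12 in place of -0.01. With each library left out it ran from 0.0128 to 0.22.

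The number of genes called over the whole table moved more. It was 119 higher and 25 lower with DESeq2, 25 higher and 1 lower with limma-voom, and 108 higher and 34 lower with a covariate for Y-linked reads, in place of 38 and 2. Lower calls numbered 1 with upper-quartile factors, library size only or an age covariate, 5 without the expression filter and 8 in the 4 libraries without Y-linked reads. With each library left out, higher calls ran from 6 to 59 and lower calls from 0 to 4. Blocking on replicate numbers gave 36 higher and 5 lower calls, the members' median was 0.07 and 0 members were called. Deviations from the group means correlated by -0.24, 0.20 and -0.53 between libraries with the same number. With 3 libraries a group, these correlations cannot settle whether the numbers pair the libraries. The cause of these changes was not tested. Depth limits the weakest members, such as *Mx1*, *Mx2* and *Oasl1*, to a few counts in some libraries.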
